A study of Caenorhabditis elegans with 2 samples.

Results

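The genes described here encode proteins that carry newly made secretory and membrane proteins into the endoplasmic reticulum (ER) and coat the vesicles that move them onwards. They were chosen by name, as the protein-coding genes of the assembly WBcel235 whose names begin with 1 of 14 prefixes (sec-, spcs-, trap-, srpa-, tram-, copa-, copb-, copg-, copd-, cope-, copz-, ostb-, ostd- and tfg-). This gave 39 of the 19973 protein-coding genes on the 6 nuclear chromosomes. The prefix sec- also takes in 6 exocyst genes, whose products tether secretory vesicles at the plasma membrane, and the SNARE genes sec-20 and sec-22, so the members are not all translocation or coat genes. In turn, partners with other names, such as dnj-29 (the counterpart of yeast Sec63) and npp-20 (that of Sec13), fall outside the rule and are given separately.

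Binding of EFL-1, the worm counterpart of the mammalian factors E2F4 and E2F5, was mapped by chromatin immunoprecipitation and sequencing (ChIP-seq) with an antibody against EFL-1. The labels give 1 group of 2 biological replicates, each of whole L1 larvae (the first larval stage) of the wild-type hermaphrodite strain N2 grown at 26 °C. No second condition was studied, and with whole larvae as the sample the cells in which a site was occupied cannot be told. The authors deposited a relaxed peak list for each replicate, another for both replicates pooled, and a set of 4835 peaks thresholded by the irreproducible discovery rate (IDR), all on ce11, the same assembly as WBcel235. The authors gave every peak a score but no unit for it; scores are used here to order peaks within 1 list, and a ratio of scores between the replicates is a description. Read depth is unknown from these lists.

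Genes count as bound here if their promoter window, which reaches 500 bp upstream and 200 bp into the gene from the annotated start, contains an IDR summit. The group was proposed with these peaks already known, so its binding is a description and carries no test. EFL-1 is the DNA-binding subunit, with its partner DPL-1, of a complex known for repressing cell cycle genes. The members act in a different process: the signal recognition particle brings ribosomes to the ER, the SEC61 channel lets the chain through, signal peptidase and oligosaccharyltransferase process it, COPII coats carry cargo out of the ER and COPI coats return it. In C. elegans, trans-splicing and operons are common, and the annotated start of a gene need not be where its transcription begins.

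Most of these genes had an EFL-1 peak at their start. Of the 39 members, 27 (69.2%) were bound, and 12 were not, where 15.2% of all 19973 protein-coding genes were bound. All 3 genes of the SEC61 channel and both oligosaccharyltransferase genes had a summit in their window. Of the 5 genes of the translocon-associated TRAP complex and TRAM, 4 were bound, as were 6 of 8 genes of COPII and ER exit sites, 5 of 7 COPI genes, 2 of 4 signal peptidase genes, 3 of 6 exocyst genes and 0 of 2 SNARE genes. Without the exocyst genes, 24 of 33 were bound (72.7%).

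**Figure D1:**
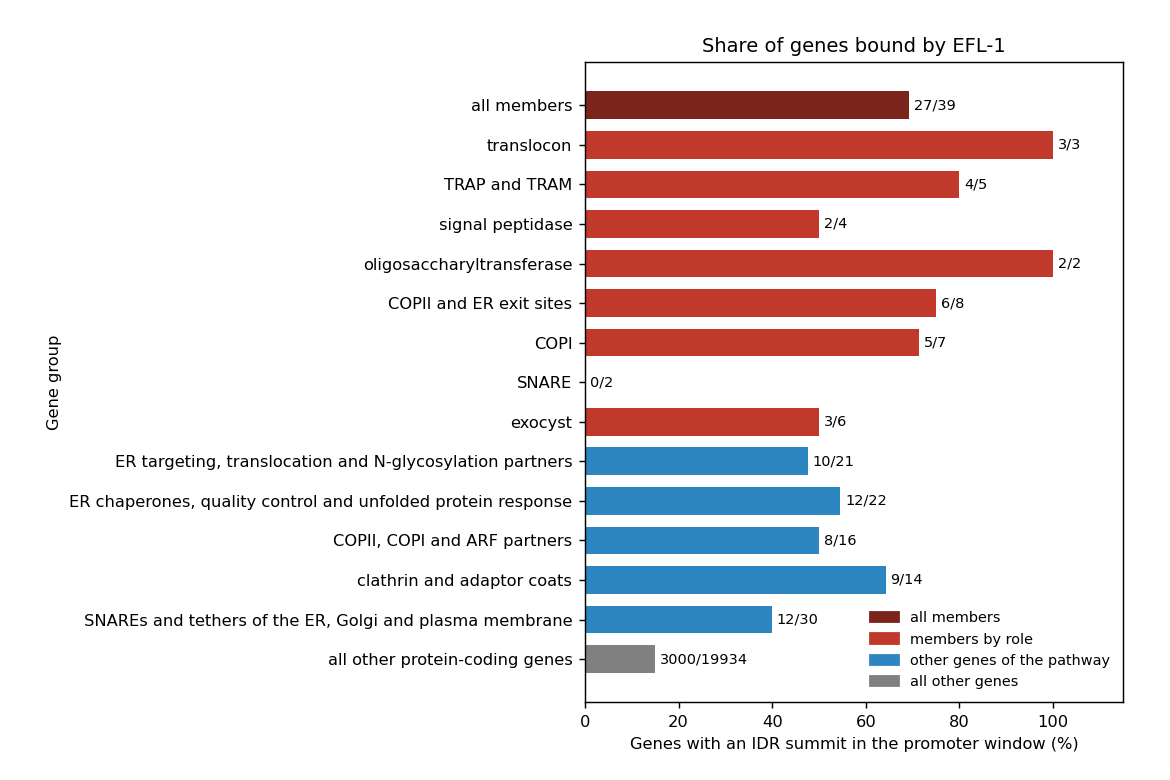
Percentage of genes with an IDR summit in the promoter window (x axis) for all 39 members, for members by role (the signal recognition particle not drawn), for 5 lists of other secretory pathway genes and for all other protein-coding genes (y axis), with the bound and total numbers beside each bar. All members stood at 69.2% and all other genes at 15%, and both SNARE genes lacked a summit.

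The 27 bound members had 26 distinct peaks, because sec-61.B and trap-3 share 1. The median score of these 26 peaks was 391.3, against 297.5 for the 2373 distinct peaks at all bound genes and 179.8 for the whole IDR set. Of the 26, 22 (84.6%) scored above that last value, against 65.1% of the peaks at all bound genes. The top 100 peaks of the IDR set held 2 of them, the top 500 held 5 and the top 1000 held 8. The same counts were not taken for the peaks at all bound genes. Scores of members ran from rank 5 to rank 4011 of 4835.

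The sequences at 4 of the 6 highest-scoring member peaks, and at copb-2, show what lies under the strongest summits and where the site known for E2F factors was found. Each covers 50 bp on either side of the summit on ce11 and is written 5′ to 3′ on the strand of the named gene, read from the RefSeq genome. Capitals mark the E2F consensus (TTCCCGC, also TTCGCGC, also TTGCCGC and TTGGCGC) and the hexamer GACGCA, each on either strand. The gene copb-2 was added after its match had been seen.
sec-61.G (chrV:10897330-10897430, minus strand): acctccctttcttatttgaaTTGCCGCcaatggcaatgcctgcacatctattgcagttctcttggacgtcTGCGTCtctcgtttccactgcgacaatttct
sec-24.1 (chrIV:11566307-11566407, minus strand): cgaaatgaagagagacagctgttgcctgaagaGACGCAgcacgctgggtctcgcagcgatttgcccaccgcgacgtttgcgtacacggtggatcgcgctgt
spcs-2 (chrIII:12874849-12874949, plus strand): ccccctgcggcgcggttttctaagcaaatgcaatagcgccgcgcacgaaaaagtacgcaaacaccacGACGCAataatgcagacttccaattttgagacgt
trap-3 and sec-61.B (chrIV:2389111-2389211, plus strand): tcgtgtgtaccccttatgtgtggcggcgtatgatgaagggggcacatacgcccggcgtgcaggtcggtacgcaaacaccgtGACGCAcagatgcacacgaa
copb-2 (chrIV:9459393-9459493, plus strand): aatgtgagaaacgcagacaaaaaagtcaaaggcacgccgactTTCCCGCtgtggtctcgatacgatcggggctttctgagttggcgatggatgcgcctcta
Annotated exons of non-coding RNA genes overlap the stretches at sec-24.1, trap-3 and copb-2, and no exon overlaps those at sec-61.G and spcs-2.

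The E2F consensus lay within 100 bp of the summit at 2 of the 26 member peaks (7.69%), those of sec-61.G and copb-2. Of all 2373 distinct peaks in promoter windows, 473 (19.9%) held it, and so did 6.91% of stretches of the same length centred 170 bp upstream of every protein-coding start. The match at sec-61.G was TTGCCGC, centred 27 bp upstream of the summit, and that at copb-2 was TTCCCGC, centred 5 bp upstream of it, both on the strand of the gene. The count was also 2 with a search of 50 bp on each side and with a search of each whole peak, which for some members is shorter than the main stretch. The cell cycle genes homology region (TTCGAA or TTTGAA), a short site bound by another subunit of the complex, was found at 14 of the 26 (53.8%), against 52.4% of promoter peaks and 56.3% of promoters.

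Short strings other than the E2F consensus were also counted within 100 bp of the summit. They were 12 in number, some overlapping, and were chosen after the sequences at 5 of the strongest member peaks had been read, so those 5 are among the peaks counted. Those 5 are not the same set as the stretches printed above, as copb-2 is not among them. GACGCA was found at 7 of the 26 member peaks (26.9%), against 23.6% of all promoter peaks and 6.27% of promoters, but at 2 of the 21 member peaks other than those 5 (9.52%). The sequences at spcs-2 and trap-3 have ACGCAAA a few bases before GACGCA, and that of sec-24.1 holds ACGCAAA on the opposite strand. ACGCAAA was found at 5 of the 26 (19.2%), against 8.3% of promoter peaks and 3.26% of promoters, but at 1 of those 21 (4.76%). The 21 leave out 5 of the strongest member peaks, whereas the promoter peaks keep theirs, and the counts of 2 and 1 are small. Whether either string is rarer or commoner at members than at promoter peaks cannot be told from them. TGACGT, the core of sites known for ATF and XBP-1 factors of the unfolded protein response, occurs in none of the stretches printed above. It lay at spcs-1, spcs-2, ostb-1, copz-1, cope-1 and sec-31, that is 6 of the 26 (23.1%), against 9.02% of promoter peaks and 7.24% of promoters, and at 5 of those 21 (23.8%). Of the 12 strings, 4 were less frequent at member peaks than at all promoter peaks: GCGCG, at 38.5% and 43.9%, GAGACGC, at 11.5% and 15.9%, GACGCAG, at 15.4% and 16.2%, and its extension by 1 base (an A in front), at 11.5% and 14.7%. The other strings were more frequent at member peaks, including CGCAAA (38.5% and 23.2%), GTACGC (19.2% and 10.2%), TTGCGTAC (15.4% and 5.44%), ACGCAAAC (11.5% and 3.67%) and TACGCAAA (11.5% and 3.96%). At the 21 member peaks other than the 5 read, these stood at 23.8%, 9.52%, 4.76%, 0.0% and 0.0%. No difference in any string, TGACGT included, was tested. The median G+C content within 100 bp of the summit was 41.8% at member peaks and 39.8% at all promoter peaks.

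At the SEC61 channel, through which nascent chains enter the ER, scores spanned a wide range. The peak of sec-61.G, the gene of the small gamma subunit (chrV:10897175-10897651), had an IDR score of 11071 and ranked 5 of 4835, with its summit 237 bp upstream of the start. Its score was 4351 in replicate 1, where it ranked 4, and 6748 in replicate 2, where it ranked 6. The beta subunit gene sec-61.B shares its peak (chrIV:2388977-2389322, score 1097, rank 530) with trap-3 on the opposite strand. That peak scored 402.4 in replicate 1 and 689.2 in replicate 2. Its summit lay 284 bp upstream of trap-3 and 486 bp upstream of sec-61.B, just inside its window. The pore-forming alpha subunit gene sec-61.A (chrIV:14824939-14825357, score 522.9, rank 1044) had the only member summit downstream of its start, 88 bp into the gene and in its 5′ UTR. There the replicates gave 219.7 and 296.4.

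The gene srpa-72 encodes a protein of the particle that delivers ribosomes to this channel. Its peak scored 238.9 and ranked 1964, with 78.3 and 159.5 in the replicates. The summit lay 150 bp upstream of srpa-72 and also fell in the window of F08D12.12 on the opposite strand, 250 bp upstream of that gene.

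TRAP subunits, which sit beside the channel, were all bound, whereas tram-1, encoding another protein of the same site, was not. The scores were 1097 at trap-3, 504.8 at trap-1, 331.0 at trap-2 and 306.7 at trap-4, and the summits lay between 205 and 284 bp upstream of the starts. The replicate scores, 1 then 2, were 182.8 and 319.1 at trap-1, 106.0 and 221.1 at trap-2 and 86.1 and 221.6 at trap-4. The peak of trap-2 is also that of ile-2, which encodes an intracellular lectin of cargo transport, and that of trap-4 also lies in the window of the deadenylase gene ccf-1. No relaxed summit of the pooled list lay in the window of tram-1; its closest IDR summit was 1173 bp upstream of it and 79 bp upstream of C24F3.2.

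Of the signal peptidase genes, spcs-2 and spcs-1 were bound and spcs-3 and sec-11, the catalytic subunit gene, were not. The peak of spcs-2 scored 1256 and ranked 466, with 479.4 in replicate 1 and 778.9 in replicate 2, and its summit lay 132 bp upstream of spcs-2 and 243 bp upstream of mrg-1, a chromodomain gene on the other strand. At spcs-1 the score was 87.2 (rank 3817), with 22.98 and 57.28 in the replicates. The oligosaccharyltransferase genes had scores of 214.7 at ostd-1 and 169.1 at ostb-1, with 80.6 and 136.0 in the replicates at ostd-1 and 45.8 and 129.3 at ostb-1. The summit at ostd-1 lay 338 bp upstream of it, inside an intron of tom-1 on the opposite strand.

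Genes of the COPII coat and of ER exit sites had scores between 80.7 and 3084. The peak of sec-24.1, encoding a cargo adaptor of the inner coat (chrIV:11566172-11566572), scored 3084 and ranked 137, with 1130 in replicate 1 and 1971 in replicate 2. Its paralogue sec-24.2 was unbound, with a relaxed score of 30.1 in the pooled list, 9.03 in replicate 1 and 18.4 in replicate 2; the closest IDR summit lay 11285 bp away, upstream of wdr-46. The gene sec-12, whose yeast and human counterparts load the GTPase Sar1, had a score of 1809 (rank 304), with 580.3 and 1226 in the replicates. The exit-site gene tfg-1 scored 646.8 (rank 876), with 220.3 and 432.9 in the replicates, and its summit lay 124 bp upstream of it and 108 bp upstream of tdpt-1, a gene of DNA end repair. Scores were lower at sec-31 of the outer coat (363.5), at sec-16A.2, a gene of the exit-site scaffold (143.7, with 49.4 and 95.3 in the replicates), and at sec-23 of the inner coat (80.7, with 20.3 and 57.4 in the replicates). The summit counted for sec-23 lay 359 bp upstream of it and 161 bp upstream of the decapping gene dcs-1. Of the scaffold paralogues, sec-16A.1 had no relaxed summit in the window of its outermost start; an IDR summit with a score of 245.6 lay 255 bp downstream of that start, which is 142 bp upstream of the start of another of its transcripts.

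COPI subunits had intermediate scores. The zeta subunit gene copz-1 led with 759.7 (rank 751), with 275.1 in replicate 1 and 482.7 in replicate 2, and its peak lies between it and the cyclophilin gene cyn-4. It was followed by copb-2 (495.5), copa-1 (355.4), copg-1 (272.8) and cope-1 (197.8), the genes of the beta-prime, alpha, gamma and epsilon subunits. Over these 4, scores ran between 59.2 and 176.0 in replicate 1 and between 128.4 and 322.6 in replicate 2. The delta subunit gene copd-1 was not bound by the rule, although an IDR summit with a score of 230.3 lay 516 bp upstream of its start, 16 bp beyond the window. The beta subunit gene copb-1 had no relaxed summit in its window, and the closest IDR summit, 1668 bp upstream, lay 169 bp upstream of Y25C1A.8.

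Exocyst genes divided evenly and the SNARE genes were unbound. Peaks lay at sec-3 (430.7), sec-15 (419.1) and sec-5 (224.4), with 188.3 and 241.8 in the replicates at sec-3, 156.0 and 250.8 at sec-15, and 79.4 and 145.7 at sec-5. The summit counted for sec-15 was 27 bp upstream of C28G1.2 and within 200 bp of a tRNA gene, the only such RNA gene near a member summit. That counted for sec-5 was 6 bp inside pir-1, an RNA phosphatase gene. Relaxed scores of the unbound genes were 22.8 at sec-8 (11.9 and 19.2 in the replicates), 19.5 at sec-10 and 12.7 at sec-6. The SNARE gene sec-22 had a relaxed score of 58.8, which ranks 4874 and is just under the lowest score of the IDR set, 59.6; it scored 22.7 in replicate 1 and 35.7 in replicate 2. No relaxed summit of the pooled list lay at sec-20.

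**Figure D2:**
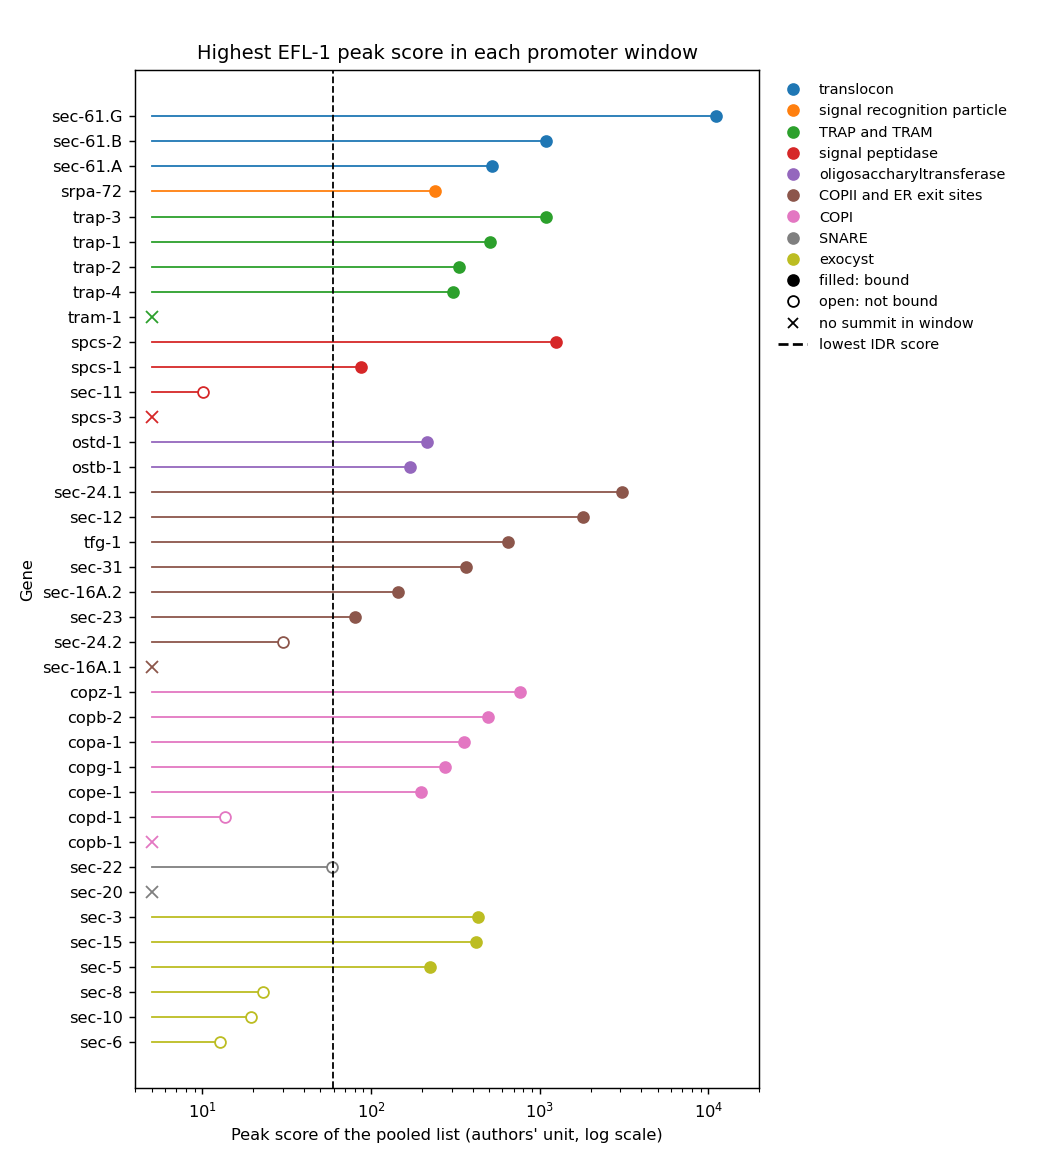
Highest peak score of the pooled list in the promoter window of each member drawn, all but 1 (x axis, authors' unit, log scale; genes on the y axis, coloured by role). Filled points are bound genes, open points have a summit below the IDR set, crosses have no summit, and the dashed line is the lowest IDR score, 59.6, with sec-22 at 58.8 beside it.

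The threshold split the members with few near it. Just inside lay sec-23 with 80.7 and spcs-1 with 87.2, and just outside lay sec-22 with 58.8 and then sec-24.2 with 30.1. Of the 12 unbound members, 7 had a relaxed summit in the window and 5 had none; over all unbound protein-coding genes 20.7% had one. By position, sec-61.B was the bound member closest to the edge of the window and copd-1 the unbound member closest to it. With the window of 1000 bp upstream to 500 bp downstream, copd-1 and sec-16A.1 were added (29 of 39, 74.4%). In that window 19.0% of other genes were bound.

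Several members lie close behind another gene on the same strand, as downstream genes of operons do. By a gap of at most 500 bp, 11 members did, of which 6 (54.5%) were bound, and of the other 28 members 21 (75%) were; among all other protein-coding genes the shares were 11% and 15.9%. For 4 of the 5 unbound ones, the first gene of the run was bound, a share that was not counted over all unbound downstream genes. These heads were rpb-7, an RNA polymerase subunit gene, before sec-11 (692.9), bmy-1 before sec-6 (600.5), ubc-20 before sec-20 (131.8), and the shugoshin gene sgo-1, which heads the run that holds sec-10 (60.3). The last is 7 steps from sec-10, and its score is near the lowest of the IDR set, 59.6. Closest to sec-10 lay an IDR summit of score 480.7, 3352 bp upstream of it and 295 bp upstream of tag-322. The IDR summit closest to sec-11, also of score 692.9, lay 14 bp upstream of Y54E10BR.2. That closest to sec-6, also of score 600.5, lay 227 bp upstream of F09E5.11. The head before spcs-3, K12H4.5, was unbound with an IDR summit of score 2405 lying 504 bp upstream of its start. Of the 6 bound ones, 2 had a bound head as well, cope-1 with exo-1 (1468) and spcs-1 with ndua-13 (361.4). The other 4 bound ones, trap-1, sec-12, sec-16A.2 and sec-3, had a summit at their own start and none at the head of their run.

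Summits of members were centred close to those of all bound genes. Their median position was 166 bp upstream of the start (quartiles 279 and 132 bp upstream), against 170 bp for all bound genes (quartiles 280 and 97 bp upstream). Upstream of the start lay 26 of 27 (96.3%), against 93.7% of all bound genes. Between 100 and 300 bp upstream lay 19 of the 27, a larger share than the 53.2% of all bound genes, and this difference was not tested. By annotation, 24 of the summits were outside protein-coding genes, 1 in an intron (of tom-1), 1 in an exon of pir-1 and 1 in the 5′ UTR of sec-61.A. No member had more than 1 IDR summit in its window.

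**Figure D3:**
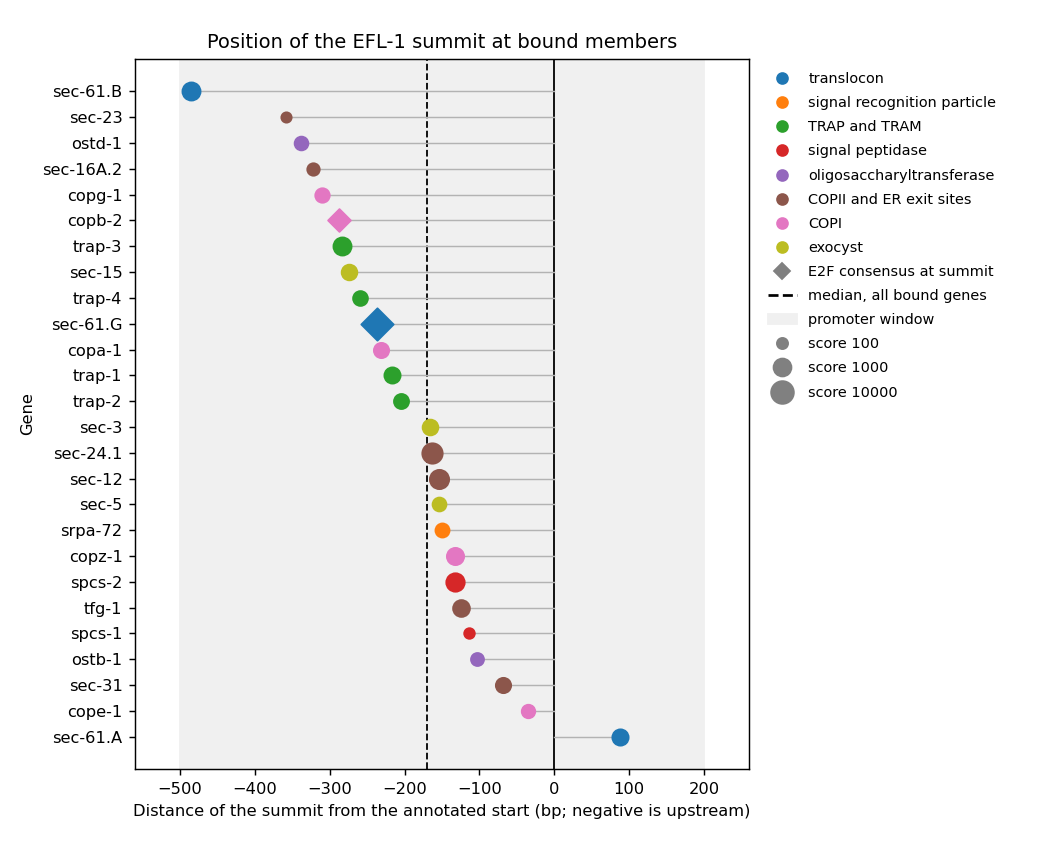
Distance of the summit from the annotated start in bp (x axis, negative is upstream) for the bound members but 1 (y axis), with point area rising with the logarithm of the IDR score and colour giving the role. Diamonds mark the E2F consensus, at sec-61.G and copb-2, and the dashed line is the median of all bound genes, 170 bp upstream.

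Many of these peaks could be counted for a neighbour as well. The peak of 13 of the 27 bound members (48.1%) also lay in the window of another protein-coding gene, as it did for 42.7% of all bound genes, and in each of the 13 that gene was on the opposite strand. For 20 of the 27 the member had the nearest start to the summit. When each summit was given only to the nearest start, within 2000 bp, 23 members were bound (59.0%), against 17.1% of other genes. Among those lost were sec-5, sec-15, sec-23, tfg-1 and trap-4, and copd-1 and sec-16A.1 were added. Summits outside the promoter window count in this setting. Such summits added copd-1 and sec-16A.1 and kept sec-61.B, whose own peak lies nearer to trap-3.

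Bound members were found on all 6 chromosomes. They made up 6 of 8 members on I, 4 of 6 on II, 3 of 7 on III, 7 of 10 on IV and 3 of 3 on V. On X, 4 of 5 were bound (trap-2, sec-3, sec-15 and sec-16A.2, but not sec-22), whereas 7.48% of the other genes of X were. The share of other genes bound was between 10.2% and 23.6% on the autosomes.

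Both replicates held every bound member. All 27 had a summit within 100 bp of the IDR summit in each replicate list, with a median distance of 10 bp between the replicate summits and a largest distance of 59 bp. The IDR set, from which these peaks come, was itself selected on both replicates and was identical to the 4835 highest-scoring peaks of the pooled list. All 26 member peaks scored higher in replicate 2, with a median log2 ratio (replicate 2 over replicate 1) of 0.87 and an SD of 0.345, against 0.98 and 0.485 over the 2338 promoter peaks matched in both lists. The order of the 26 peaks was close in both lists (rho = 0.97 by Spearman's method, and r = 0.985 by Pearson's for log10 scores), where every point comes from the same pair of libraries and the same selection of peaks. Ranks differed most at sec-23 (5330 in replicate 1 and 3879 in replicate 2), spcs-1 (4788 and 3883) and sec-31 (1981 and 1227). At sec-31 the score of replicate 2 (282.8) stood furthest above that of replicate 1 (81.3), at a log2 ratio of 1.80. With the 4835 top peaks of replicate 2 alone, the same 27 members were bound (69.2%), against 15.2% of other genes. With those of replicate 1 alone, 26 members were bound (66.7%), without sec-23, against 14.7% of other genes.

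**Figure D4:**
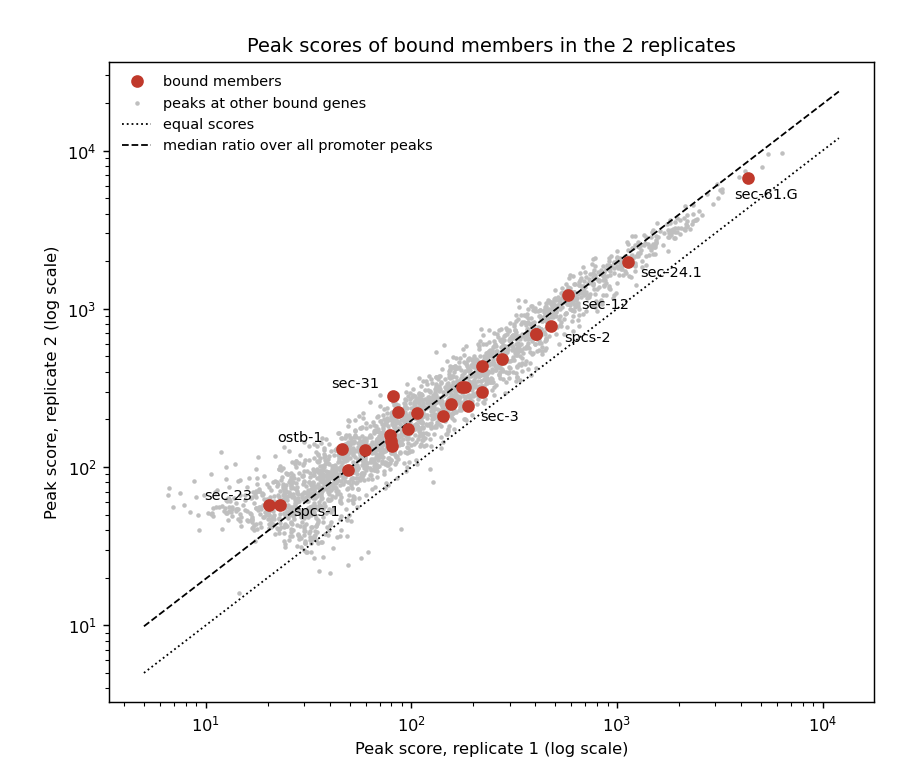
Peak scores in replicate 1 (x axis) and replicate 2 (y axis), both on log scales, for bound members but 1 (red) and for peaks at other bound genes (grey). The dotted line marks equal scores and the dashed line the median log2 ratio of 0.98; sec-31 lies above the dashed line, with 81.3 and 282.8, and sec-3 below it, with 188.3 and 241.8.

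Other genes of the secretory pathway, taken as lists, had lower shares bound than the 69.2% of the members. The lists ran from 40.0% to 64.3%, all above the 15.2% of all protein-coding genes, so a high share was not particular to the members. These differences were not tested. The 5 lists of partners were chosen for their roles, but with earlier results of these data known. Of their 111 entries, 103 matched a gene name, and 51 of these (49.5%) were bound, with a median score of 377.8. Among partners of targeting, translocation and glycosylation, 10 of 21 were bound, led by the oligosaccharyltransferase gene dad-1 (1123), algn-10 (920.2) and the signal peptide peptidase gene imp-2 (905.6), with dnj-29 at 328.0. ER chaperone, quality control and unfolded protein response genes had 12 of 22 bound, led by the calreticulin gene crt-1 (1096), the GRP94 gene enpl-1 (905.6), which shares its peak with imp-2, and hsp-3, a BiP gene (698.5). In the same list hsp-4 was unbound, with a relaxed score of 15.1. Partners of the COPII and COPI coats had 8 of 16, led by the cargo receptor gene sel-9 (1181), sar-1, the GTPase that starts COPII assembly (750.8), and npp-20 (484.6). Clathrin and adaptor genes had 9 of 14, led by the clathrin light chain gene clic-1 (2510), apb-1 (1012) and aps-1 (875.0). SNAREs and tethers had 12 of 30, led by cogc-2 of the Golgi tethering complex (2402), trpp-10 (1790) and the syntaxin gene syx-5 (823.3).

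The difference in share between members and other genes was present under each setting tried. All settings drew on the same 2 replicates, and the group was proposed with these peaks known. The persistence of the difference is therefore a description and no separate support. The members' share was lowest with the window of 300 bp upstream to 100 bp downstream, in which 22 of 39 members (56.4%) and 11.6% of other genes were bound; copg-1, ostd-1, sec-16A.2, sec-23 and sec-61.B were lost there. In the 2417 higher-scoring IDR peaks, 23 members (59.0%) and 10.3% of other genes were bound. With any summit of the relaxed pooled list, the counts were 34 members (87.2%) and 32.6% of other genes.

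**Figure D5:**
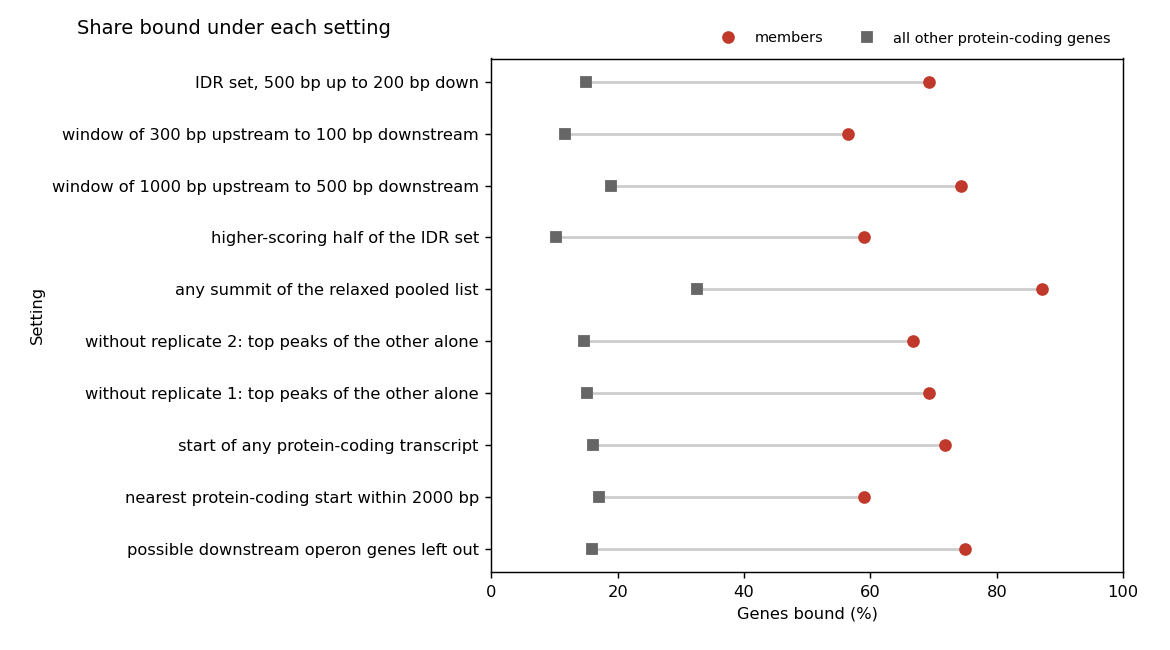
Percentage of members (red circles) and of all other protein-coding genes (grey squares) bound (x axis) under each choice of window, peak list and gene set (y axis). Members range between 56.4% and 87.2%, and other genes between 10.3% and 32.6%.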

How the data were processed

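The peak lists on ce11 were used as deposited. Per the labels, libraries had sizes of 150 to 350 bp. The authors deposited a peak score and a summit offset for each peak; which aligner and peak caller made them is not given in the sources used here. Lists on ce10, signal tracks and the control library were not analysed here, and depth is unknown. Genes came from Ensembl release 115 (WBcel235) and sequence from RefSeq. The highest-scoring summit in a window gave a gene its values. Replicate summits were matched within 100 bp. Windows, motif search and matching were written in Python 3.11.15 with numpy 2.4.6 and pandas 2.3.3 and tested on simulated data. No test was run: the members and lists were chosen with earlier results of these data known. Of the partner entries, ostc-1, emc-4, arf-1.1, arf-1.2, arf-3, tango-1, cogc-7 and trpp-2 matched no gene name. Values are given in full for the 10 highest-scoring and 3 lowest-scoring bound members, the 3 unbound ones with the highest relaxed scores, the 3 with the largest rank difference between replicates, and the 3 highest of each partner list; 1 member enters the counts but is not reported individually here, and others named were chosen after their values were seen. Alternatives changed the window, the peak list, the start, the assignment, the gene set, the width of the motif search and the matching distance.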

Additional observations from a re-analysis of the deposited data

How the results depend on the processing

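The counts of bound members, of bound partner genes and of all other bound genes stayed within 1.5 times of those reported under every alternative but one. With any summit of the relaxed pooled list, 6507 other genes and 77 partner genes were bound, against 3000 and 51 with the IDR set; the looser list holds 30000 peaks. Of the 39 members, between 22 (window of 300 bp upstream to 100 bp downstream) and 34 (relaxed list) were bound. Leaving out possible downstream operon genes made the gene set smaller, and 21 of its 28 members were bound. That is a larger share than the 27 of 39 reported. Counted as distinct IDR peaks, the bound members gave 26. The matches in both replicate lists were 26 within 50 bp and 27 within 200 bp, and the median summit position was the same from the nearest start of any transcript. No paired analysis was possible because the series has 1 group. Scores have no stated scale and depth is unknown, so small differences in score cannot be weighed against counting error.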
